A study of Mus musculus with 6 samples.

Results

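The voltage-gated sodium and calcium channel genes were examined in RNA-seq libraries of the whole right hippocampus from 3 sham mice and 3 mice with bilateral carotid artery stenosis (BCAS). They were taken by gene symbol: Scn followed by a number and the letter a or b, or a symbol beginning Cacna1, Cacna2d or Cacnb. This rule found 32 of the 54752 genes in the count tables, 14 of sodium channels and 18 of calcium channels, and no measured value entered it. All mice were wild-type (WT) C57BL/6 males, given in the methods as C57BL/6 J. They were labelled with a time of 14 weeks, which is read here as their age though the label does not say so. The tissue was collected 3 weeks after surgery. In BCAS mice a microcoil was wound on both common carotid arteries, the narrower one on the right, which lowers blood flow to the forebrain over weeks, and sham mice were operated on without coils. Only mice that survived to collection could be sequenced, and each library is 1 mouse. Because the tissue was ground whole, fewer cells of a type and less RNA per cell cannot be told apart in any value below.

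Voltage-gated sodium channels open when a neuron is depolarized and carry the upstroke of the action potential. Voltage-gated calcium channels open in the same way and turn the electrical signal into calcium entry, which triggers transmitter release at synapses, dendritic spikes and gene expression in the soma. Each channel has a large pore-forming subunit, called α in sodium channels and α1 in calcium channels, and smaller partners that set its gating, trafficking and anchoring: the β subunits of sodium channels, and the α2δ and β subunits of calcium channels. In the hippocampus these channels are best known from pyramidal neurons, granule cells and interneurons.

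The libraries held 29652456 to 35607098 counts, of which the channel genes took 0.360% to 0.387% in sham libraries and 0.240% to 0.298% after BCAS. Counts are given below as CPM (counts scaled to the size of the library) with TMM factors, and levels of different genes are compared only as CPM per kilobase of exon. A count of 0 allows up to 3 counts, or 0.0875 to 0.0995 CPM, a limit that covers counting error only. Groups were compared with edgeR's quasi-likelihood test, adjusted over the 18617 genes that passed its filter on low counts, since exact permutation of 3 against 3 mice gives no P smaller than 0.1. The tissue label was checked on marker lists: the summed CPM of 6 CA1, 6 CA3 and 6 dentate granule markers ran from 187 to 828 over the lists and libraries, so that pyramidal and granule cell transcripts were detected in every library. Of all marker lists, the widest spread among libraries of 1 group was in 6 choroid plexus markers, which summed to 71.1 to 4093 CPM in sham mice and 40.9 to 5944 CPM in BCAS mice, and its part in the results was not tested.

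In BCAS mice the channel genes were lower as a group. Of the 28 channel genes tested, 18 fell at an adjusted P under 0.05 and 10 did not pass, against 13.2% of all tested genes that were lower. No channel gene was higher by edgeR, DESeq2 or limma-voom, although 18% of all tested genes were higher, and 1 channel gene, Cacna2d4, was higher at an unadjusted P under 0.05. The falls spanned both channel types, with 7 of 11 tested sodium channel genes and 11 of 17 tested calcium channel genes. They ranged from 17.2% for Cacna1g to 56.1% for Scn3b. The median log2 fold change of the 28 genes was -0.44, while that of all tested genes was 0.02.

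In 20 of the 28 genes every BCAS library lay below every sham library, which held for 22.7% of all tested genes. These were the 18 genes that fell and 2 that did not pass, Scn9a among them. In Cacna1d and Cacna2d4 every BCAS library lay above every sham library, as in 25.3% of all tested genes. Scn3b was the only channel gene with a log2 fold change below -1 as well as an adjusted P under 0.05, a pair of criteria that 0.999% of all tested genes met. The other falls were smaller than a factor of 2, and the biological coefficient of variation common to all genes was 0.161.

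How many channel genes passed depended on which mice were included. Without sham mouse 1, 2 or 3 the number that fell was 8, 8 and 11, and without BCAS mouse 1, 2 or 3 it was 15, 19 and 14. Each of these fits holds 1 mouse fewer, and the share of all tested genes that fell in each is not given here. Of the 18, 7 kept an adjusted P under 0.05 under all 15 other tests, scalings, filters and choices of mice, among them Scn1a, Scn2a, Scn8a, Scn2b, Scn3b and Cacnb2, and the other 11 were lost under at least 1.

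**Figure D1:**
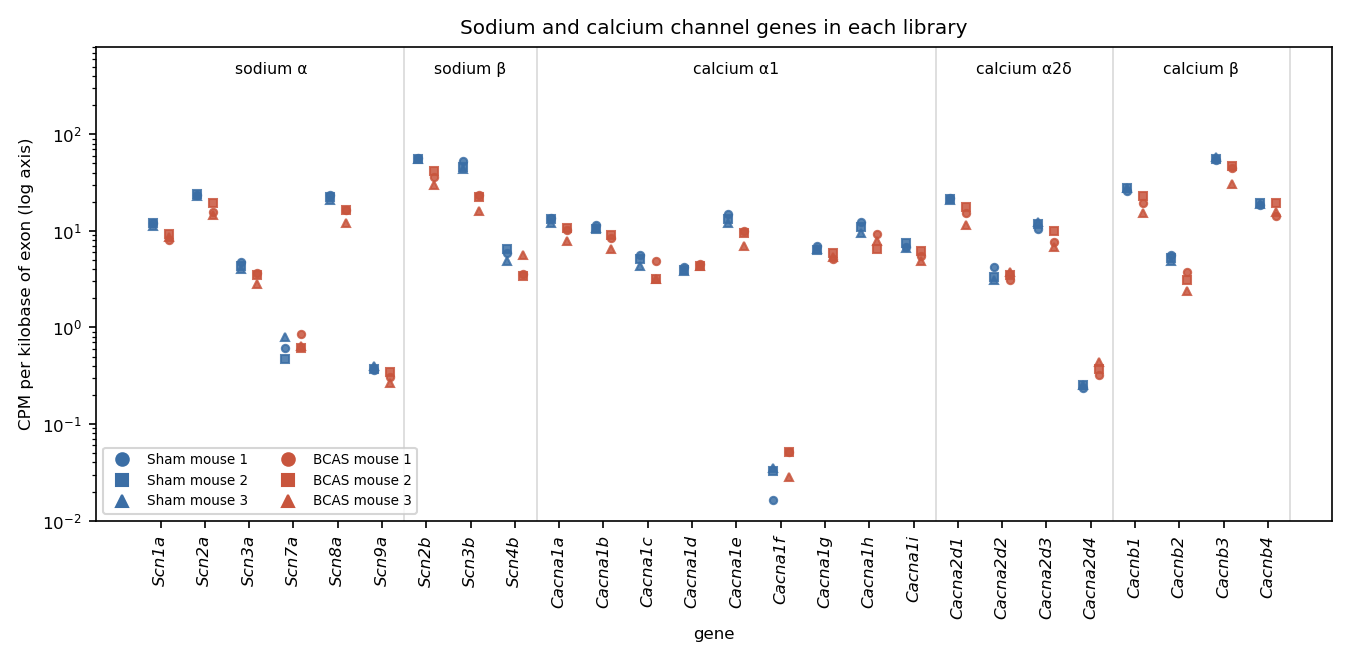
Level of 26 tested channel genes in each library, as CPM per kilobase of exon on a log axis, with 1 point per mouse and the genes ordered by subunit class. Scn3b shows the widest gap between groups among the genes that fell, from 47.2 in sham mice to 20.7 in BCAS mice on average.

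The promoters of the channel genes differed widely in base composition, also among genes that fell by similar amounts. RefSeq windows (GRCm38.p6, from 250 bases before to 50 after the start site) were found for 24 of the 32 genes. Their GC content ran from 33.0% (Scn2a) to 81.3% (Cacna2d3), with a median of 61.2% against 52.7% over 27025 promoters. Among the 12 windows of genes that fell the median was 66.3%, and among the other 12 it was 55.7%. The other 12 include Scn4a, Scn10a, Scn11a and Cacna1s, which were not tested because of low counts. Below are the windows at the extremes of GC content, together with Cacna2d1, which had the most GC boxes, and Cacna1d, a gene that did not pass the test and the only one with TATAAA. Capitals mark every match to the GC box letters GGGCGG or to TATAAA on either strand, and matches may overlap. The windows are chr2:65620519-65620818 on the + strand for Scn2a, chr5:15934441-15934740 on the + strand for Cacna2d1, chr14:29721815-29722114 on the - strand for Cacna2d3 and chr14:30491107-30491406 on the - strand for Cacna1d.
Scn2a: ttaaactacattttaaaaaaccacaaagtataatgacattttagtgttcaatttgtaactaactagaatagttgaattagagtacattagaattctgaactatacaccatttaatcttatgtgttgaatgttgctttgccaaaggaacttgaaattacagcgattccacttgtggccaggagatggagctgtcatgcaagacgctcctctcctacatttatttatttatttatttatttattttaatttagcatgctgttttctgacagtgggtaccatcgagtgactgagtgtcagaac
Cacna2d1: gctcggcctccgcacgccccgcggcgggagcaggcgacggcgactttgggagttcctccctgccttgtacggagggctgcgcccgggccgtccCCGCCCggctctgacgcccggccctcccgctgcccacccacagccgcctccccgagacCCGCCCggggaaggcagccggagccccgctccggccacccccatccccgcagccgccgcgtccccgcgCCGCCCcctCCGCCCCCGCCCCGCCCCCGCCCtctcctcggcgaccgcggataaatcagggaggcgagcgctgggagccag
Cacna2d3: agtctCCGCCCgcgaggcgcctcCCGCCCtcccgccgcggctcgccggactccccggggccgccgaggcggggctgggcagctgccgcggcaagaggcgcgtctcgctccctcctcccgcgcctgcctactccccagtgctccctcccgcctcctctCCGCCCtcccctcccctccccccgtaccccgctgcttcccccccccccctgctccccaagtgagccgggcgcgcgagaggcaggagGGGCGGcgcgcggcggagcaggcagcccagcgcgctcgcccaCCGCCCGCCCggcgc
Cacna1d: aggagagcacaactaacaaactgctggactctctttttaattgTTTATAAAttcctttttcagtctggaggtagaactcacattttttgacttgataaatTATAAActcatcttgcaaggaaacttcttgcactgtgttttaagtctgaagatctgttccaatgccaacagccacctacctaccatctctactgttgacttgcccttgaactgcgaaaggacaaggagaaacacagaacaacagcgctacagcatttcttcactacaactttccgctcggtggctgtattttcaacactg

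The AT-rich window of Scn2a held no match, the windows of Cacna2d1 and Cacna2d3 held 7 and 6 GC boxes, and that of Cacna1d held 3 matches to TATAAA. A GC box stood in 11 of the 24 windows (35.9% of all promoters) and TATAAA in 1 of 24 (14.2%). The cyclic AMP response element TGACGTCA was found in none of the 24 (1.85% of all promoters), nor were the letters TTCAGCACC of the left part of the RE1 element (0.37%). Scn2a and Cacna2d3, at the opposite ends of GC content, had nearly the same log2 fold change, -0.50 and -0.51. These matches describe letters in the windows and do not show that a factor bound there.

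Of the 10 sodium channel α genes, 7 passed the filter and 4 fell: Scn1a, Scn2a, Scn3a and Scn8a, the 4 that are known as the brain's sodium channels. In sham mice Scn2a (23.5 ± 0.48 CPM per kilobase, SD, n = 3) and Scn8a (22.4 ± 1.4) were the highest and differed by less than their spread. Scn1a followed at 11.8 ± 0.57 and Scn3a at 4.37 ± 0.40, each beyond the spread of its neighbours. The summed level of the α genes in BCAS mice was 70.6% of that in sham mice.

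Scn8a encodes Nav1.6, the channel of the distal axon initial segment and of nodes of Ranvier. It stood at 374, 353 and 330.5 CPM in sham mice 1 to 3 and at 259, 257 and 189 CPM in BCAS mice 1 to 3. BCAS mouse 3 was the lowest and the other BCAS mice were alike, with no overlap with the sham mice. The log2 fold change was -0.59 (SE 0.13, adjusted P = 0.00831). Scn2a encodes Nav1.2, found in excitatory neurons along unmyelinated axons and the proximal initial segment. It measured 297, 306 and 294 CPM in sham mice and 199.9, 248 and 184 CPM in BCAS mice. Sham mice were close together, while BCAS mouse 2 kept more of the transcript than the other BCAS mice. The log2 fold change was -0.50 (SE 0.11, adjusted P = 0.00962).

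Scn1a encodes Nav1.1, the main sodium channel of fast-spiking interneurons. It was at 134, 135 and 124 CPM in sham mice and at 90.2, 104 and 97.1 CPM in BCAS mice, a change of -0.43 on the log2 scale (SE 0.08, adjusted P = 0.00385). Here BCAS mouse 1 rather than mouse 3 was the lowest, and the groups did not overlap. Scn3a encodes Nav1.3, the channel that is highest in the embryonic brain. It was at 59.9, 53.4 and 50.1 CPM in sham mice and at 45.4, 43.0 and 35.3 CPM in BCAS mice, with a log2 fold change of -0.40 (SE 0.11, adjusted P = 0.0250). The highest BCAS value lay just under the lowest sham value, and the call was lost without sham mouse 1 or 2 or BCAS mouse 3 (adjusted P up to 0.0988).

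The other α genes, best known from other tissues, were low. Scn9a, a gene of peripheral sensory neurons, was at 4.63 to 5.04 CPM in sham mice and 3.43 to 4.38 CPM in BCAS mice (log2 fold change -0.30, adjusted P = 0.219). Every BCAS value lay under every sham value, without passing the test. Scn7a encodes Nax, a relative that senses extracellular sodium in glia rather than voltage. It was at 3.47 to 5.89 CPM in sham mice and 4.54 to 6.31 CPM in BCAS mice, overlapping, with a log2 fold change of 0.17 (adjusted P = 0.628) that turned to -0.01 without sham mouse 2. The muscle gene Scn4a and the sensory neuron genes Scn10a and Scn11a had at most 9 counts in any library and were not tested.

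Scn1a, Scn2a, Scn3a, Scn7a and Scn9a lie in 1 cluster on chromosome 2 (mm10), between chr2:65457118 and chr2:66784914. The log2 fold changes of Scn3a, Scn2a and Scn1a were -0.40, -0.50 and -0.43, while Scn9a and Scn7a, which lie beyond Scn1a and were low in all libraries, did not pass. Scn8a stands alone at chr15:100869858-101045938.

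All 4 sodium channel β genes had lower means in BCAS mice, and 3 of them fell. Scn3b changed most of all channel genes, to 43.9% of its sham level. The β subunits cross the membrane once and carry an immunoglobulin domain, so that they modulate the pore and also act in adhesion. Per kilobase, Scn2b stood at 55.9 ± 1.2 (SD, n = 3) in sham mice, Scn3b at 47.2 ± 4.6 and Scn4b at 5.77 ± 0.86. The sum of the class in BCAS mice was 64.2% of that in sham mice.

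Scn3b (chr9:40269217-40291618, + strand) encodes β3, a subunit bound to the pore without a disulfide bridge. It stood at 286, 248 and 239.5 CPM in sham mice and at 129, 122 and 88.2 CPM in BCAS mice. The highest BCAS value lay far below the lowest sham value, and BCAS mouse 3 was again the lowest. The log2 fold change was -1.19 (SE 0.14, adjusted P = 4.35e-04). Over 15 alternatives it stayed between -1.30 and -1.04, and it passed the threshold in each.

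Scn2b and Scn4b encode the β2 and β4 subunits, which are linked to the pore by a disulfide bridge, and are neighbours at chr9:45117782-45130070 and chr9:45138395-45154152. Scn2b was at 266, 256 and 259 CPM in sham mice and at 167, 195 and 139 CPM in BCAS mice, a change of -0.64 on the log2 scale (SE 0.12, adjusted P = 0.00391). Scn4b, known for the resurgent current of fast-firing neurons, was at 29.5, 32.5 and 24.1 CPM in sham mice and at 17.9, 17.0 and 28.2 CPM in BCAS mice. Its log2 fold change was -0.45 (adjusted P = 0.118), and BCAS mouse 3, the lowest for most channel genes, was here the highest of its group and within the sham range. Without that mouse the log2 fold change of Scn4b was -0.73 (adjusted P = 0.00887).

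Of the 10 calcium channel α1 genes, 9 passed the filter and 6 fell. All 3 genes of the presynaptic Cav2 family and all 3 genes of the low-threshold T-type family fell, while none of the tested genes of the L-type family passed the test. This contrast is one of the threshold and not of size. The L-type gene Cacna1c did not pass at a log2 fold change of -0.43, while Cacna1a passed at -0.44 and Cacna1g at -0.27. The L-type genes Cacna1d (0.15) and Cacna1f (0.62) had positive values. In sham mice Cacna1e (13.4 ± 1.4 CPM per kilobase, SD, n = 3) and Cacna1a (13.05 ± 0.88) were the highest and differed by less than their spread, as did Cacna1h (10.99 ± 1.4) and Cacna1b (10.9 ± 0.56). Below them came Cacna1i (6.97 ± 0.44) and Cacna1g (6.58 ± 0.34), which also differed by no more than their spread, then Cacna1c (5.02 ± 0.64) and Cacna1d (3.997 ± 0.21). The class summed to 75.5% of its sham level in BCAS mice.

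Cacna1e encodes Cav2.3, the R-type channel of dendritic spines and presynaptic terminals. It was at 374, 331 and 307 CPM in sham mice and at 252, 241 and 174 CPM in BCAS mice, with a log2 fold change of -0.60 (SE 0.14, adjusted P = 0.0126), the largest fall of the class. The call was lost without sham mouse 1 (adjusted P = 0.0582). Cacna1a encodes Cav2.1, the P/Q-type channel that triggers fast transmitter release. It was at 157, 153 and 138 CPM in sham mice and at 117, 123 and 90.2 CPM in BCAS mice (log2 fold change -0.44, SE 0.12, adjusted P = 0.0223). Cacna1b encodes Cav2.2, the N-type channel that shares this role. It was at 114, 104 and 106 CPM in sham mice and at 84.5, 90.6 and 64.2 CPM in BCAS mice (log2 fold change -0.44, SE 0.12, adjusted P = 0.0239). The P/Q-type and N-type genes thus fell by nearly the same factor, and the call of Cacna1a was lost without sham mouse 1 or 2 and that of Cacna1b without any 1 sham mouse. BCAS mouse 3 was the lowest for all 3 genes of the family.

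The T-type channels open near rest and support burst firing. Cacna1h was at 121, 108 and 92.8 CPM in sham mice and at 89.8, 63.3 and 76.0 CPM in BCAS mice (log2 fold change -0.49, SE 0.14, adjusted P = 0.0255). Cacna1i was at 67.2, 73.7 and 65.5 CPM in sham mice and at 54.3, 61.4 and 48.3 CPM in BCAS mice (log2 fold change -0.33, SE 0.10, adjusted P = 0.0323). Cacna1g was at 70.3, 63.5 and 66.4 CPM in sham mice and at 52.0, 59.9 and 53.9 CPM in BCAS mice (log2 fold change -0.27, SE 0.08, adjusted P = 0.0323). In each of these genes a gap of a few CPM separated the groups, and the lowest BCAS mouse differed among them: mouse 2 for Cacna1h, mouse 3 for Cacna1i and mouse 1 for Cacna1g. All 3 calls were lost under scaling by library totals and without sham mouse 1 or 2 or BCAS mouse 3, and those of Cacna1g and Cacna1i also without sham mouse 3 or BCAS mouse 1.

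L-type channels link depolarization to gene expression in the soma and dendrites. Cacna1c (Cav1.2), their most abundant gene in sham mice, was at 118, 109 and 91.8 CPM in sham mice and at 102, 68.0 and 67.3 CPM in BCAS mice, so that BCAS mouse 1 lay within the sham range. Its log2 fold change was -0.43 (SE 0.17, adjusted P = 0.0809), and it passed the threshold with DESeq2 (adjusted P = 0.0280), with all genes of at least 1 count (0.0111), with a replicate block (0.0256) and without BCAS mouse 1 (0.00402). Cacna1d (Cav1.3), which opens at lower voltages, was at 53.4, 49.5 and 48.4 CPM in sham mice and at 57.6, 54.7 and 55.0 CPM in BCAS mice. All BCAS values lay above the sham values, by a small margin, with a log2 fold change of 0.15 (SE 0.07, adjusted P = 0.162). The counts ignore strand, and 4.67% of the exonic bases of Cacna1d overlap Chdh on the other strand, whose reads cannot be told apart there. Cacna1f, known from the retina, was at 0.148 to 0.464 CPM, and Cacna1s, known from skeletal muscle, had at most 15 counts in any library and was not tested.

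The α2δ subunits are extracellular proteins that bring channels to the presynaptic membrane. Cacna2d1 and Cacna2d3 fell, while Cacna2d2 and Cacna2d4 did not pass the test. Cacna2d1, a target of gabapentin and the highest of the class (21.4 ± 0.33 CPM per kilobase in sham mice, SD, n = 3), was at 270, 265 and 262 CPM in sham mice and at 189, 219 and 142 CPM in BCAS mice. Sham mice were nearly equal and BCAS mice spread widely, with a log2 fold change of -0.53 (SE 0.14, adjusted P = 0.0190). The call was lost without any 1 sham mouse (adjusted P up to 0.0664). Cacna2d3 (11.5 ± 0.94 CPM per kilobase) was at 91.5, 102 and 108 CPM in sham mice and at 66.1, 86.7 and 59.1 CPM in BCAS mice, a change of -0.51 on the log2 scale (SE 0.14, adjusted P = 0.0212), and its call was lost without sham mouse 2 or 3 or BCAS mouse 1 or 3 (adjusted P up to 0.0842). These are the genes with the GC-rich promoter windows printed above.

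Cacna2d2, the other target of gabapentin, was at 33.8, 26.7 and 24.6 CPM in sham mice and at 24.6, 27.8 and 29.7 CPM in BCAS mice. The groups overlapped, the log2 fold change was -0.05 (adjusted P = 0.804), and its sign turned to 0.02 under scaling by library totals. Cacna2d4, a gene of the retina, was at 2.21, 2.42 and 2.42 CPM in sham mice and at 3.08, 3.51 and 4.17 CPM in BCAS mice. All BCAS values were above the sham values, yet the log2 fold change of 0.61 (SE 0.21) missed the threshold with an adjusted P of 0.0519. It passed with library totals (adjusted P = 0.0371) and with counts halved (adjusted P = 0.0470), and over all alternatives its adjusted P ran from 0.0371 to 0.158. Per kilobase it was 0.248 in sham mice, the lowest of its class. The α2δ genes together had 72.7% of their sham level in BCAS mice.

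The calcium channel β subunits bind the pore from the inside and are needed for it to reach the surface. Cacnb1, Cacnb2 and Cacnb3 fell, and Cacnb4 did not pass the test. Cacnb3 was the highest in sham mice at 55.9 ± 2.3 CPM per kilobase (SD, n = 3), then Cacnb1 at 27.2 ± 1.0, Cacnb4 at 18.9 ± 0.33 and Cacnb2 at 5.24 ± 0.38, all apart beyond their spread. The class summed to 74.2% of its sham level in BCAS mice.

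Cacnb2 (chr2:14603088-14987908) had the largest fall of the calcium channel genes and was the only one of them with an adjusted P under 0.05 under all 15 of these alternatives. It was at 74.0, 69.8 and 64.1 CPM in sham mice and at 49.95, 40.6 and 31.8 CPM in BCAS mice, a change of -0.76 on the log2 scale (SE 0.15, adjusted P = 0.00514). Of its exonic bases 7.32% overlap genes on the other strand. Cacnb1 was at 118, 125 and 127 CPM in sham mice and at 89.0, 105 and 68.6 CPM in BCAS mice (log2 fold change -0.49, SE 0.13, adjusted P = 0.0232), a call lost without any 1 sham mouse. Cacnb3 was at 216, 223 and 234 CPM in sham mice and at 179, 190.2 and 123 CPM in BCAS mice. Its log2 fold change was -0.45 (SE 0.15, adjusted P = 0.0458), close to the threshold, BCAS mouse 3 stood apart below the other BCAS mice, and the call was lost under 6 of the 15 alternatives. Cacnb4, known from the cerebellum and mutated in the lethargic mouse, was at 167, 173 and 168 CPM in sham mice and at 126, 174 and 139 CPM in BCAS mice. BCAS mouse 2 lay above all sham mice, and the log2 fold change was -0.21 (adjusted P = 0.182). Without that mouse it was -0.36 (adjusted P = 0.00825). Cacnb4 shares 16.0% of its exonic bases with A430018G15Rik on the other strand, so that part of its reads may belong to that gene.

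Channel genes and neuronal markers were lower in the same libraries. Summed over all 32 genes, the channel level relative to the sham mean was -0.47, -0.37 and -0.75 on the log2 scale in BCAS mice 1 to 3, and that of 12 pan-neuronal markers was -0.56, -0.34 and -0.85. In both sums BCAS mouse 3 was the lowest and mouse 2 the highest of its group, an order that the CA1 and interneuron lists shared and other neuronal lists did not. BCAS mouse 1 was the highest of its group for excitatory neuron markers (-0.48, -0.56 and -1.12 in BCAS mice 1 to 3), CA3 markers (-0.45, -0.69 and -1.08) and dentate granule markers (-0.17, -0.80 and -0.60), and for the last of these mouse 2 was the lowest. BCAS mouse 3 was the lowest BCAS library for 15 of the 18 genes that fell. Of the pan-neuronal markers, 9 of 12 fell (median log2 fold change -0.58), and 5 of 8 excitatory neuron markers (-0.67) and 6 of 8 interneuron markers (-0.46) fell. The medians were lower in the CA1 list (-0.95, 4 of 6 fell), the CA3 list (-0.77, 5 of 6) and the dentate granule list (-1.02, 4 of 6). Markers of other cells moved the other way: all 8 microglial markers rose, their sum going from 309 to 321 CPM in sham mice to 1827, 1957 and 2948 CPM in BCAS mice 1 to 3, and all 6 astrocyte markers rose. Of 6 T cell markers 5 rose, from sums of 0.885 to 1.95 CPM to 7.46 to 8.16 CPM. None of 6 oligodendrocyte markers passed by edgeR, and 1, Mbp, had an unadjusted P under 0.05. The part of these cell types in the channel results was not tested beyond the scaling that follows.

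**Figure D2:**
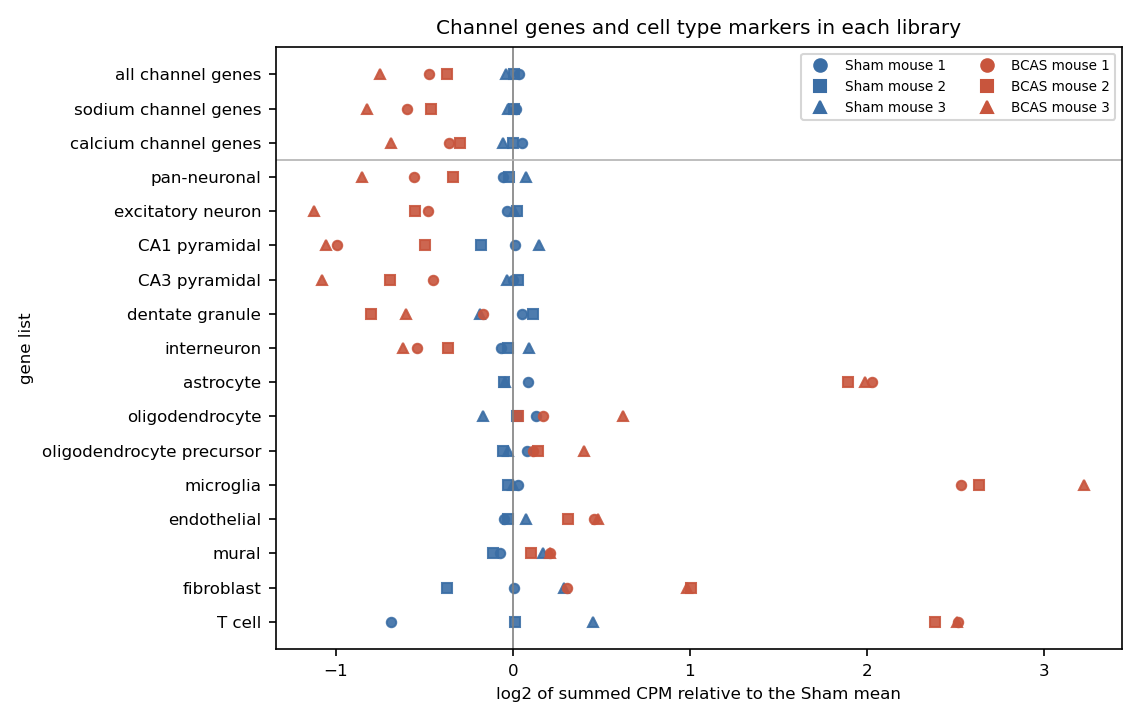
Summed CPM of the channel genes (top) and of cell type marker lists (choroid plexus left out) in each library, as log2 relative to the sham mean, with 1 point per mouse. The sums of all channel genes lie at -0.75 to -0.37 in BCAS mice, next to those of pan-neuronal markers (-0.85 to -0.34), while microglial markers lie at 2.54 to 3.23.

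To describe the channel genes relative to neuronal transcripts, the libraries were rescaled to the 12 pan-neuronal markers. The mean log count of these markers was made the same in each library. This raised all log2 fold changes by about 0.57 and the median of all tested genes to 0.59. On this scale the median of the 28 channel genes was 0.11, and 23 of them passed in neither direction. Scn3b alone was lower (log2 fold change -0.65, SE 0.13, adjusted P = 0.00295), which 0.682% of all tested genes were. Cacna1d (0.71, adjusted P = 0.00349), Cacna2d4 (1.19, adjusted P = 0.00603), Cacnb4 (0.34, adjusted P = 0.0339) and Scn7a (0.74, adjusted P = 0.0361) were higher, as were 55.2% of all tested genes, so these 4 of 28 are a smaller share than the background. For the main brain channels the values were near 0: 0.04 for Scn2a, -0.04 for Scn8a, 0.13 for Scn1a, -0.06 for Cacna1e and 0.01 for Cacna2d1. With 8 excitatory neuron markers in place of the pan-neuronal list, Scn3b was again the only one lower (-0.52, adjusted P = 0.0109), and Cacna2d2 joined the other 4 on the higher side (0.67, adjusted P = 0.0239). With the pan-neuronal list, 1 channel gene was lower also when any single mouse was left out, while without sham mouse 2 the number higher was 2.

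**Figure D3:**
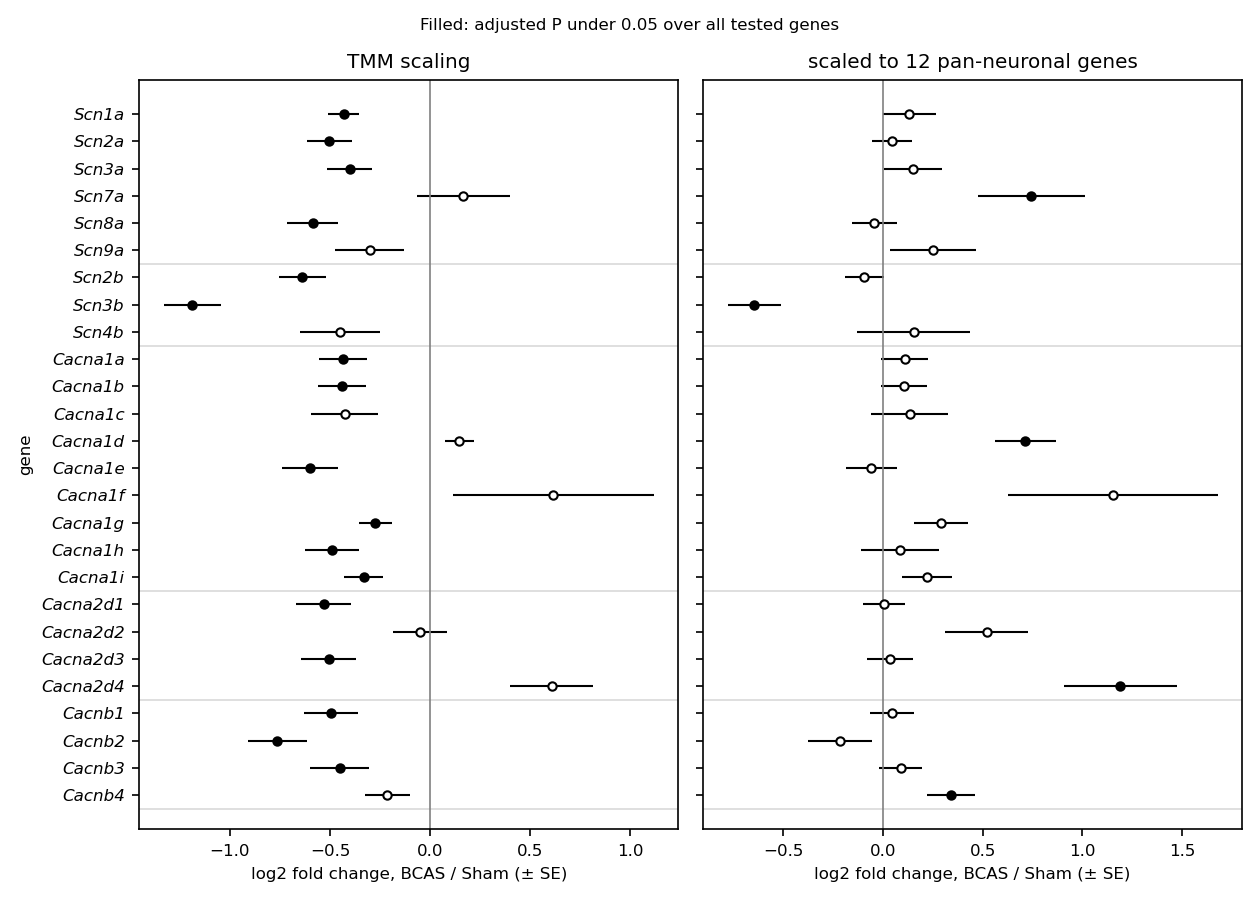
Log2 fold change (BCAS over sham, ± SE) of 26 tested channel genes with TMM scaling (left) and with libraries scaled to 12 pan-neuronal markers (right). Filled points have an adjusted P under 0.05 over all tested genes: 17 of these 26 are lower on the left, and Scn3b lower with 4 genes higher on the right.

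The makeup of each subunit class was also compared, as the share of each gene in the summed CPM per kilobase of its class in each library, as a description with no test. In the sodium β class Scn3b took 13.1% ± 1.7 (SD, n = 3) in sham mice and 8.93% ± 1.2 in BCAS mice, without overlap. Without the division by length the share of Scn3b went from 25.4% to 18.2%, and the groups were again apart. Among α1 genes Cacna1d went from 5.64% ± 0.16 to 8.32% ± 0.86 and Cacna1e from 18.8% ± 0.59 to 16.4% ± 1.4, again without overlap. A share also rises when the rest of the class falls, and the level of Cacna1d itself did not pass the test (log2 fold change 0.15). Small shares without overlap were those of Cacna1f (0.0405% to 0.0798%) and of the sodium α gene Scn9a (0.596% to 0.683%). The 2 main sodium α genes kept overlapping shares, 37.1% ± 1.2 and 37.0% ± 2.2 for Scn2a and 35.3% ± 0.91 and 33.2% ± 2.9 for Scn8a. In the α2δ class Cacna2d4 went from 0.676% ± 0.035 to 1.46% ± 0.44, and the shares of Cacna2d1 and Cacna2d3 overlapped between groups. Among the β genes of calcium channels Cacnb1 went from 25.4% ± 0.27 to 24.2% ± 0.61 without overlap, a difference that overlapped when length was not divided out, and the other 3 overlapped.

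**Figure D4:**
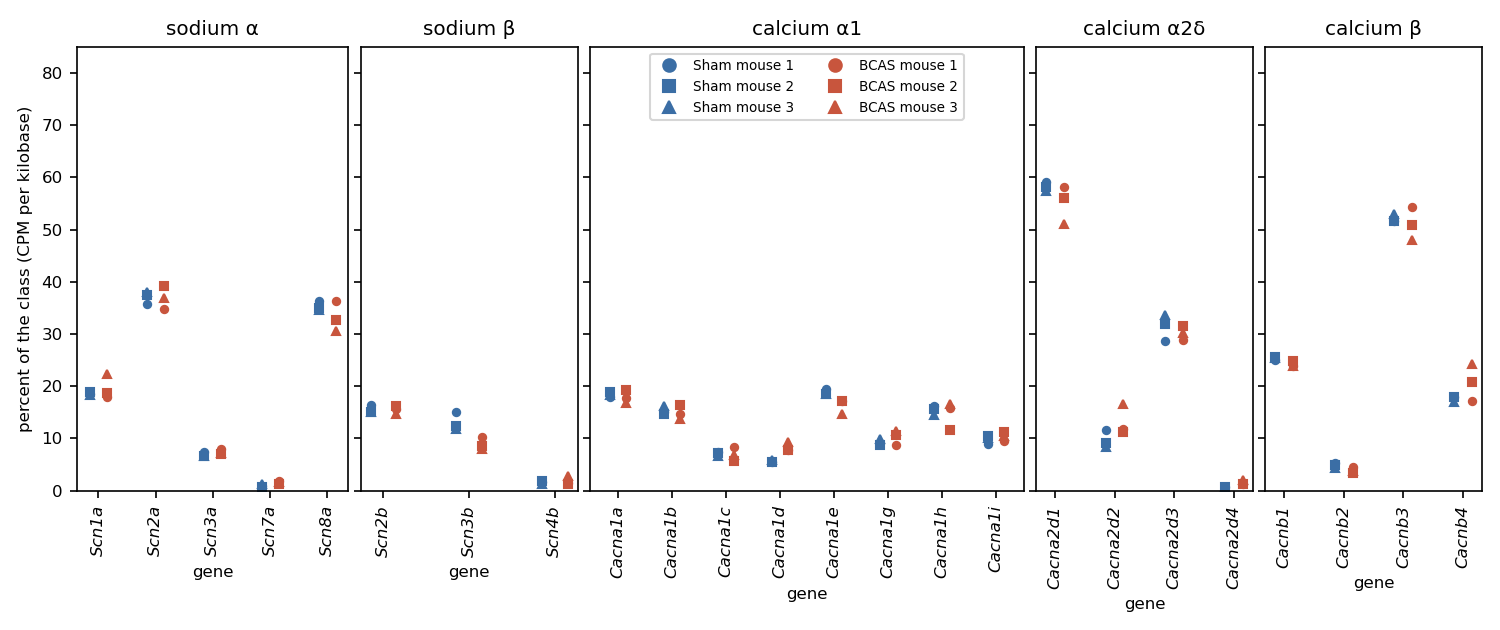
Share of each gene in the summed CPM per kilobase of its subunit class, in percent, with 1 point per mouse, for the genes described here that reach 1% in any library. Scn3b lies lower in BCAS mice (8.93% against 13.1%) and Cacna1d higher (8.32% against 5.64%), while the shares of Scn2a overlap.

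Genes whose products work with these channels were taken from 3 lists. Their counts stand beside 13.2% of all tested genes that were lower and 18% that were higher. Of 11 partners of sodium channels and of the axon initial segment, 7 fell and none rose by edgeR, nor at an unadjusted P under 0.05, with a median log2 fold change of -0.34. The 4 with the lowest adjusted P were Fgf11 (-0.69, adjusted P = 0.00233) and Fgf13 (-0.68, adjusted P = 0.00544), which bind the tail of the pore, the ubiquitin ligase gene Nedd4l (-0.50, adjusted P = 0.00555), and Ank3 (-0.34, adjusted P = 0.0219), whose product ankyrin-G holds sodium channels at the initial segment. Fgf13 was at 257, 265 and 272 CPM in sham mice and at 201, 162 and 134 CPM in BCAS mice, and Ank3 at 318, 299 and 263 CPM and at 247, 223 and 224 CPM. Both genes had all BCAS values under all sham values, as had 22.7% of all tested genes.

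Of 22 tested partners of calcium channels, 9 fell and 2 rose, with a median of -0.38. Rem2 and Gem encode small GTPases that inhibit calcium channels through their β subunits, and they changed in opposite directions. Rem2 went from 13.9, 16.6 and 16.0 CPM in sham mice to 6.28, 5.04 and 5.90 CPM in BCAS mice (log2 fold change -1.43, SE 0.14, adjusted P = 1.36e-04). Gem went from 2.18, 2.51 and 2.36 CPM to 5.76, 5.27 and 5.84 CPM (log2 fold change 1.26, SE 0.17, adjusted P = 9.72e-04). Stac, whose product binds L-type channels, went from 4.87, 3.83 and 5.01 CPM to 1.54, 1.19 and 0.930 CPM (log2 fold change -1.90, SE 0.25, adjusted P = 7.64e-04). Cacng8, named after calcium channels but best known for trafficking AMPA receptors, fell by 1.02 on the log2 scale (SE 0.14, adjusted P = 0.00100). The groups did not overlap for any of these 4 genes, which were named for their low adjusted P. Of all tested genes, 22.7% were lower without overlap and 25.3% higher. The other partner that rose, Rrad, encodes a further GTPase of this family and is named after its values were seen (log2 fold change 2.004, adjusted P = 0.00147).

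Relatives of the channel superfamily split in direction, with 3 of 8 tested genes higher, 3 lower and 2 not past the test, at a median of -0.14. Hvcn1, the voltage-gated proton channel of phagocytes, rose from 0.509 to 1.15 CPM in sham mice to 11.1, 9.61 and 17.8 CPM in BCAS mice (log2 fold change 4.05, SE 0.35, adjusted P = 7.26e-05). Tpcn1 (0.71, adjusted P = 4.23e-04) and Tpcn2 (1.33, adjusted P = 0.00121), which encode cation channels of endosomes and lysosomes, rose too. Nalcn, the sodium leak channel of neurons, went from 131, 123 and 139 CPM to 92.1, 95.0 and 81.1 CPM (log2 fold change -0.55, SE 0.08, adjusted P = 0.00173). The other genes that fell, Fam155a (-0.64, adjusted P = 0.00514) and Unc80 (-0.39, adjusted P = 0.0129), encode further subunits of the same leak channel and are named after their values were seen. The 2 not past the test, also named after their values were seen, were Unc79 (-0.29, adjusted P = 0.186) and Catsper2 (0.01, adjusted P = 0.964). For Hvcn1 the BCAS mouse with the most microglial transcripts, mouse 3, was also the highest, and the part of microglia in this rise was not tested.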

How the data were processed

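RNA-seq of the right hippocampus was available for 6 mice, 3 per group by the labels. Per the methods and the submitters' processing notes, reads were trimmed (Trim Galore), aligned to mm10 (HISAT2) and counted per gene. The authors deposited raw counts, not normalized. Per the file headers, featureCounts 2.0.3 was run with GENCODE vM20, while the notes name version 1.6.3. Strand was ignored, multi-mapped reads were not counted and mates were counted separately, so depth in fragments is lower than the totals and reads on overlapping antisense genes cannot be told apart.

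The channel genes and all lists were chosen with earlier results of these data known. Genes were kept by filterByExpr, scaled by TMM and tested with edgeR 4.0.16 (quasi-likelihood, R 4.3.3), with Benjamini-Hochberg adjustment over 18617 genes and a threshold of 0.05. CPM used TMM-scaled totals, and levels per kilobase used the exon length in the files. Named genes were all channel genes, with values in every library for those past the threshold and for the highest of each class, and of each partner list the 4 with the lowest adjusted P among those past it. Some channel genes enter the counts but are not reported by name here. Alternatives were DESeq2 1.42.0, limma-voom (limma 3.58.1), RLE scaling, library totals, other filters, counts halved or thinned, a replicate block, a fold change threshold and leaving out each mouse. All 6 files were used, and the steps were tested on simulated data. Protein sequences were not used here.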

Additional observations from a re-analysis of the deposited data

How the results depend on the processing

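Of 418 log2 fold changes of channel genes under the alternatives (15 for each of the 28 genes, 13 for Cacna1f), 362 kept their direction and their side of the threshold, 42 lost the call, 9 gained one and 5 changed sign. The number of channel genes lower was 18 with TMM and edgeR, 19 with DESeq2, 18 with limma-voom, 14 with library totals and 20 with all genes of at least 1 count. With a log2 fold change threshold of 1 it was 1, Scn3b. Leaving out 1 mouse gave 8 to 19, with the smallest numbers without sham mouse 1 or 2 (8 each), and the cause was not tested. The number higher was 0, and 1 with library totals and 1 with counts halved, which was Cacna2d4 in both. Relative to neuronal markers, the number higher was 4, or 5 with the excitatory list, and 2 to 6 when 1 mouse was left out. Signs changed only in 2 genes that did not pass. The log2 fold change of Cacna2d2, -0.05, was 0.0239 with library totals and ran from -0.147 to 0.0903 when 1 mouse was left out. That of Scn7a, 0.17, ran from -0.0074 to 0.373 when 1 mouse was left out. Libraries with the same replicate number in the labels did not deviate together (residual correlations 0.036, -0.314 and -0.158), so these numbers were not taken to pair mice. The columns of the BCAS tables are numbered 2 to 4 instead, by which sham 2 would share a number with BCAS mouse 1 (0.223) and sham 3 with BCAS mouse 2 (0.347), and no block by those numbers was fitted. With a replicate block by the labels, 17 channel genes were lower, without Cacna1g (adjusted P = 0.0797) and Cacnb3 (0.0613) and with Cacna1c, and with pan-neuronal scaling 3 were higher and 1 lower. Scn4a, Scn10a, Scn11a and Cacna1s had at most 15 counts in any library and did not pass the filter on low counts. A difference in them was therefore not tested in the main comparison.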

Other observations

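Transcript length, up to 25228 bases for Cacna1e, showed little relation to the change of a channel gene: across the 28 tested genes, which share libraries and are not independent replicates, log10 length against log2 fold change gave r = 0.093 and rho = 0.033, beside r = -0.019 and rho = 0.006 over all tested genes. Between sham mice 1 and 3 the log2 ratio of channel genes against length gave r = 0.263 and rho = 0.317, and over all tested genes r = 0.075 and rho = 0.195. Mitochondrial genes took 6.90% to 6.99% of the counts in sham libraries, and 6.02% to 6.56% after BCAS. Gene lengths are those of the annotation in the files and not of the transcripts used in this tissue.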
